A study of Mus musculus with 5 samples.

Results

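The genes described here are 52 splicing regulators of the mouse hippocampus, taken from a table of 55385 genes by their symbols alone: the numbered SR proteins (11 genes), the hnRNPs (20), and the families Celf (6), Elavl (4), Mbnl (3), Ptbp (3), Rbfox (3) and Nova (2). SR proteins bind exons through RNA recognition motifs and mostly favour the inclusion of the exon they bind, whereas hnRNPs coat nascent RNA and often act against inclusion. The Rbfox, Nova, Celf, Elavl, Mbnl and Ptbp proteins are the RNA-binding proteins that set most of the neuron-specific exon choices of the brain. Many SR and hnRNP genes also limit their own protein level by splicing in exons, or keeping introns, that expose the transcript to nonsense-mediated decay.

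Hippocampal total RNA was sequenced from 3-month-old male C57/bl6 mice that had been kept on a 12 h dark-light cycle and handled in the dark phase. One library came from an untreated control. The others came from animals given kainic acid, a glutamate receptor agonist that provokes seizures, at 20 mg/kg by intraperitoneal injection and sacrificed 1 h (1 library), 4 h (2 libraries) or 8 h (1 library) after seizure onset, and the study used only animals whose seizures reached a set stage. The control had received no injection, so that injection, drug and seizure cannot be told apart. The labels also describe injection of SL327, an inhibitor of the kinase MEK, but assign it to none of the 5 libraries. They do not say whether a library was 1 mouse, and p-values then measure only the spread between these samples, which may be technical. With 1 library in 3 of the 4 conditions, the spread rests on the 4 h pair alone.

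Between 16612225 and 19109204 reads were counted on genes in each library, and the 52 genes took between 0.686% and 0.800% of them. Levels are given as normalized CPM, that is counts scaled to the library size (CPM) after the TMM correction of edgeR, and errors of single libraries as exact Poisson 95% intervals that cover counting error only. Of the 52 genes, 51 passed the filter on low counts. The exception was Mbnl3, with 8 counts in the control, 3 after 1 h, 2 and 3 after 4 h and 9 after 8 h. Measured by length, the control level spanned from 0.149 TPM (Mbnl3) to 220 TPM (Rbfox1), a scale that divides counts by exon length and has one total for every library, and the next highest were Hnrnpk (189), Srsf5 (175) and Hnrnpa1 (166). Srsf1, the prototype SR protein, stood at 10.8 on that scale.

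The 4 h libraries were unlike each other, which bears on every 4 h value below. Because the spread rests on this pair, it also bears on the standard errors and p-values at 1 h and 8 h. Summed over 4 choroid plexus genes (Ttr, Folr1, Kl, Clic6), the level was 3957 normalized CPM in the control, 1672 after 1 h, 28.8 and 4233 in the first and second 4 h libraries and 3069 after 8 h. Summed over 3 thalamic genes (Tcf7l2, Prkcd, Slc17a6), it was 62.4, 73.2, 312, 126 and 55.1 in the same order. Activity-regulated transcription factors also differed within the pair: Fos stood at 10.8, 999, 519, 70.4 and 17.2 and Npas4 at 3.92, 694, 130, 4.92 and 5.13. Fos was at least 70.4 in every library up to 4 h after seizure onset, against 10.8 in the control. Pan-neuronal genes (Snap25, Syt1, Stmn2, Tubb3, Map2) summed to between 4725 and 5726 in the 5 libraries and oligodendrocyte genes to between 3104 (control) and 4724 (second 4 h library). The dentate granule cell genes were detected in every library but went in opposite directions, Prox1 at 60.0, 67.2, 172, 120 and 77.1 and C1ql2 at 29.3, 27.9, 11.1, 11.7 and 58.1, while Calb1 stood at 102, 100.1, 89.2, 72.5 and 60.7. Astrocyte genes summed to 4310, 4532, 5327, 4938 and 4658, with 5 of 6 above the control in both 4 h libraries, and all 5 oligodendrocyte genes were above it at 1 h (median log2 fold change 0.34) and in both 4 h libraries (0.51). Interneuron genes summed to 494 in the control and to 822 and 677 in the 4 h libraries, with 3 of 5 above it in both (median log2 fold change 0.19). Blood genes summed to 130, 108, 226, 144 and 176, with all 4 below the control at 1 h and all 4 above it at 8 h. Endothelial genes summed to 84.9, 82.7, 128, 88.4 and 103, with 2 of 4 above the control in both 4 h libraries and 1 below. All 5 microglia genes were below the control in both 4 h libraries. The part of tissue composition in the results was not tested. In bulk tissue, fewer cells of a type and less RNA per cell cannot be told apart.

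**Figure D1:**
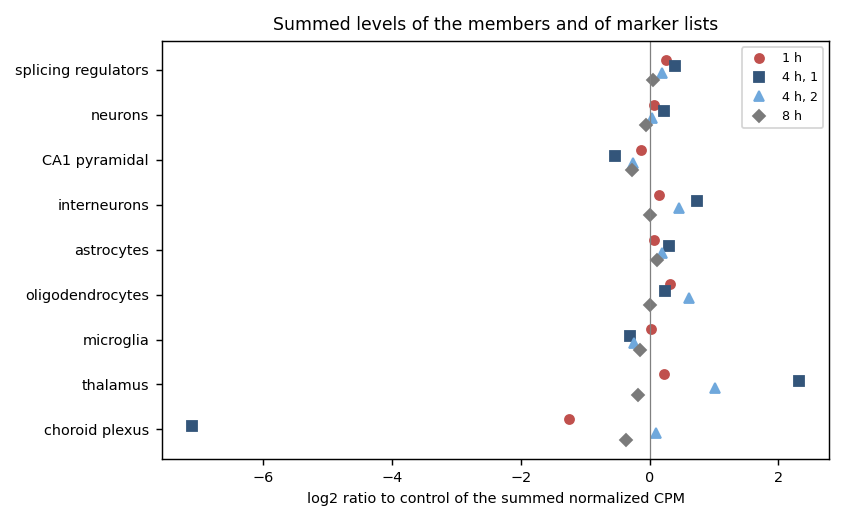
Each point is 1 kainic acid library, placed on the horizontal axis at the log2 ratio to the control of the summed normalized CPM of a gene list named on the vertical axis. The splicing regulators lie within 1 log2 unit of the control in every library, whereas the choroid plexus genes of the first 4 h library (28.8 against 3957 normalized CPM in the control) and its thalamic genes (312 against 62.4) lie far from it.

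The summed level of the splicing regulators was above the control in each kainic acid library and highest in the first 4 h library, a sum that is weighted to the abundant genes and carries no test. The 52 genes summed to 6582 normalized CPM in the control, 7819 after 1 h, 8676 and 7503 after 4 h and 6800 after 8 h. At 8 h, the 21 genes of the smaller families summed to 2513 against 2536 in the control, and 56.9% of the 51 were above the control, against 51.1% of all genes tested. The median log2 fold change over the 51 genes was 0.08 after 1 h, 0.26 after 4 h and 0.04 after 8 h, while that of all 19768 genes tested was -0.01, 0.01 and 0.01. Without the first 4 h library, the 4 h median of the splicing regulators was 0.146, and without the second it was 0.277. By family, the 4 h median was drawn from the hnRNPs, of which 17 of 20 were above the control in both 4 h libraries and 1 below it, and from the SR proteins, with 8 of 11 above and 2 below. The 6 smaller families together had 6 of 20 tested genes above and 10 below, and they were not alike. All 3 Rbfox genes and 5 of 6 Celf genes were below the control in both 4 h libraries, whereas both tested Mbnl genes and 2 of 3 Ptbp genes were above it. Of the 4 Elavl genes, 1 was above and 2 below, and neither Nova gene was on one side in both libraries. Over the 51 genes, 31 were above and 13 below in both libraries, whereas 38.1% of all genes tested were above and 38.3% below. That background was not matched for abundance.

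No splicing regulator passed the test at any time point. The quasi-likelihood test of edgeR with Benjamini-Hochberg adjustment over 19768 genes called 0% of genes at 1 h and at 8 h and 0.00506% (1 gene) at 4 h. The lowest adjusted p among the 51 was 0.685 at 1 h and 0.263 at 4 h, both for Hnrnpll, and 1.00 at 8 h. At an unadjusted p under 0.05 in edgeR, 6 of the 51 were higher and 0 lower at 1 h, 9 higher and 3 lower at 4 h, and 0 higher and 1 lower at 8 h. Over all genes tested, that threshold was met by 2.10% higher and 0.319% lower at 1 h, 7.21% and 4.38% at 4 h, and 2.39% and 2.12% at 8 h. That background holds many genes with low counts and less precise estimates. No share was taken among genes of like abundance. DESeq2, which called 0.449% of the genes it adjusted at 1 h, 1.7% at 4 h and 0.235% at 8 h, called 1 of the 51, Hnrnpll at 1 h. Limma-voom called none of them, and no gene at all. What follows is therefore a description of levels, library by library, with a 1.5-fold difference from the control as the mark of a sizeable one.

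**Figure D2:**
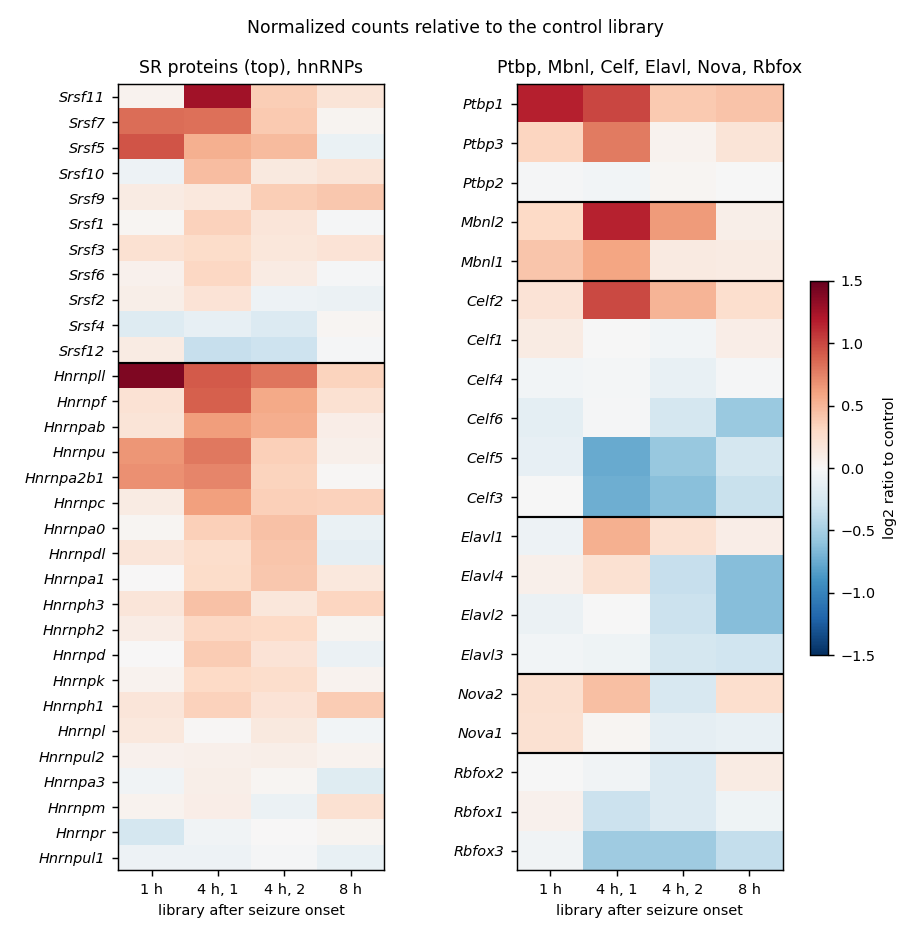
Colour gives the log2 ratio of normalized CPM to the control library for each of the 51 genes that passed the filter (rows, grouped by family with black lines between families) in each kainic acid library (columns). Red (higher) dominates the SR proteins and hnRNPs at 4 h, Hnrnpll and Ptbp1 are the reddest at 1 h, and Celf3, Celf5 and Rbfox3 are blue (lower) in both 4 h libraries.

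At 1 h, the highest ratios belonged to Hnrnpll, a paralogue of hnRNP L known for switching the exons of the phosphatase CD45 in activated T cells, to Ptbp1, the polypyrimidine tract-binding protein that holds neuronal exons silent outside neurons, and to the SR proteins Srsf5 and Srsf7. In all, 6 genes were at least 1.5-fold above the control: Hnrnpll, Ptbp1, Srsf5, Srsf7, Hnrnpa2b1 and Hnrnpu. They make up 11.8% of the 51, against 10.9% of all genes tested, a share near the background. Among the 9976 genes with a mean of at least 10 normalized CPM, a comparison group added after the values were seen and in which all 51 fall, 3.95% were as much higher. None of the 51 was 1.5-fold lower at 1 h, against 9.2% of all genes and 1.1% of the more abundant ones.

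Hnrnpll (chr17:80029487-80062334 of GRCm38, minus strand) was present at 83.7 normalized CPM in the control, 222 after 1 h, 158 and 146 after 4 h and 106 after 8 h. Every kainic acid library was above the control, the 1 h library most and the 8 h library least. The ratio to the control at 1 h was 2.65 (95% interval 2.50 to 2.81, counting error only), and the ratios of the 4 h libraries were 1.89 and 1.74. Its log2 fold change was 1.40 ± 0.19 (SE) after 1 h, 0.86 ± 0.17 after 4 h and 0.34 ± 0.19 after 8 h, and DESeq2 gave an adjusted p of 0.0127 at 1 h with the same log2 fold change of 1.40. The 4 h and 1 h levels differed by -0.54 ± 0.16 on the log2 scale, with an adjusted p of 0.534 in the quasi-likelihood test of edgeR. Its 4 h libraries were close to each other, with a ratio of 1.08 between them.

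Ptbp1 (chr10:79854427-79864771, plus strand) was low in the control, at 27.8 normalized CPM, and stood at 62.4 after 1 h, 55.6 and 36.6 after 4 h and 37.4 after 8 h. Here the pair disagreed: the first 4 h library was near the 1 h level and the second near the 8 h level, a ratio of 1.52 between them. Of its annotated exon sequence, 20.7% lies opposite other genes, and no source used here names the strand setting of the counting. The log2 fold change was 1.16 ± 0.34 after 1 h. Ptbp2, the neuronal paralogue that takes over as Ptbp1 declines during neuronal differentiation, was level throughout, at 124, 123, 121, 127 and 124. Ptbp3, the third paralogue, stood at 38.8, 48.5, 66.7, 40.2 and 44.5, with only the first 4 h library far from the rest. By length, Ptbp2 was above Ptbp1 in the control (44.0 against 19.0 TPM), and at 1 h the levels were 42.7 and 41.9.

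Srsf5, an SR protein of the nucleoplasm, stood at 216 normalized CPM in the control, 415 after 1 h, 312 and 301 after 4 h and 202 after 8 h. The 4 h libraries were alike, between the control and the 1 h library, and the 8 h library was slightly under the control, at 93.6% of it. The log2 fold change was 0.94 ± 0.18 after 1 h, 0.51 ± 0.16 after 4 h and -0.10 ± 0.18 after 8 h. Srsf7, which also links splicing to mRNA export, stood at 92.1, 164, 164, 121 and 94.6 in the same order, so that the 1 h and the first 4 h libraries were equal and the 8 h library was back within 1.03 times the control. Its log2 fold change was 0.83 ± 0.26 after 1 h.

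Hnrnpa2b1, which carries mRNAs into dendrites and axons as well as acting in splicing, stood at 277 normalized CPM in the control, 445 after 1 h, 461 and 350 after 4 h and 281 after 8 h. Hnrnpu, a nuclear scaffold protein that binds RNA and chromatin, was the most abundant of the 52 by counts, at 544, 857, 938, 696 and 573. Both shared one course, with the 1 h and first 4 h libraries high, the second 4 h library between these and the control, and the 8 h library close to the control (1.01 times for Hnrnpa2b1 and 1.05 times for Hnrnpu). The log2 fold changes at 1 h were 0.68 ± 0.25 for Hnrnpa2b1 and 0.66 ± 0.26 for Hnrnpu.

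**Figure D3:**
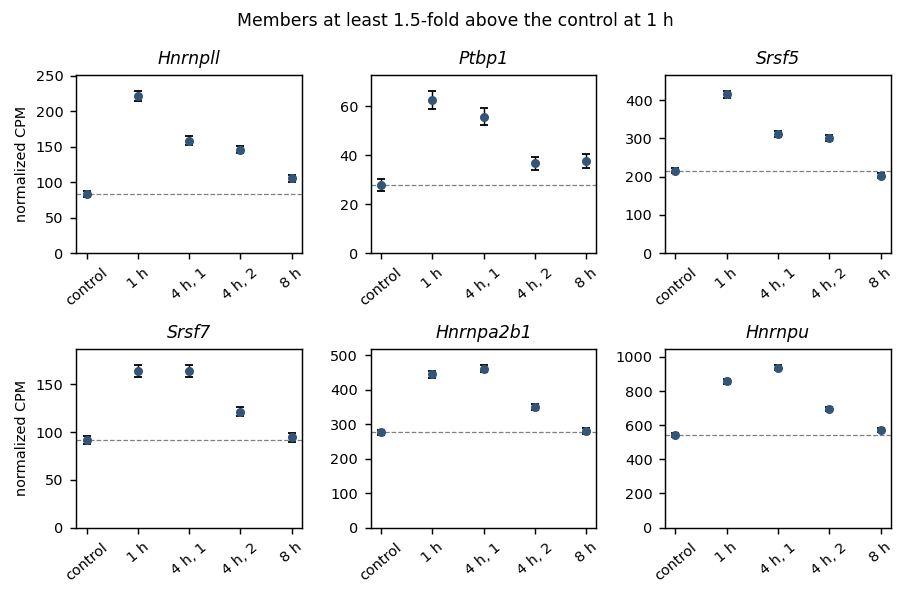
Normalized CPM (vertical axes, from 0) in each of the 5 libraries (horizontal axes) for the 6 genes at least 1.5-fold above the control at 1 h. Bars are exact Poisson 95% intervals, which cover counting error only, and the dashed line is the control level. In Hnrnpll and Srsf5 the 4 h libraries lie together, while in Ptbp1, Srsf7, Hnrnpa2b1 and Hnrnpu the first 4 h library lies well above the second.

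The 5 lowest at 1 h were Hnrnpr, Srsf4, Celf6, Celf5 and Elavl2, and they were close to the control. Hnrnpr, an hnRNP found along motor axons, stood at 128 normalized CPM in the control, 107 after 1 h, 123 and 128 after 4 h and 131 after 8 h, a 1 h ratio of 0.834. Srsf4, a long SR protein, stood at 43.5, 38.1, 39.9, 37.7 and 44.6. Of its annotated exon sequence, 43.0% lies opposite the gene Gm12992, so that with the strand setting unknown reads of the pair may not have been told apart.

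At 4 h, Mbnl2 and Hnrnpll were at least 1.5-fold above the control in both libraries (3.92% of the 51, against 10.1% of all genes tested and 6.45% of the more abundant genes), and Celf3 was at least 1.5-fold below it in both (1.96%, against 6.28% and 3.42%). Both shares were under the background. The first 4 h library alone would have put 13 of the 51 at least 1.5-fold above the control, against 20.8% of all genes then tested, and the second alone 2, against 13.3%. In 37 of the 51 genes, the first library was above the second, with a median log2 ratio of 0.16 against 0.01 over all genes.

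**Figure D4:**
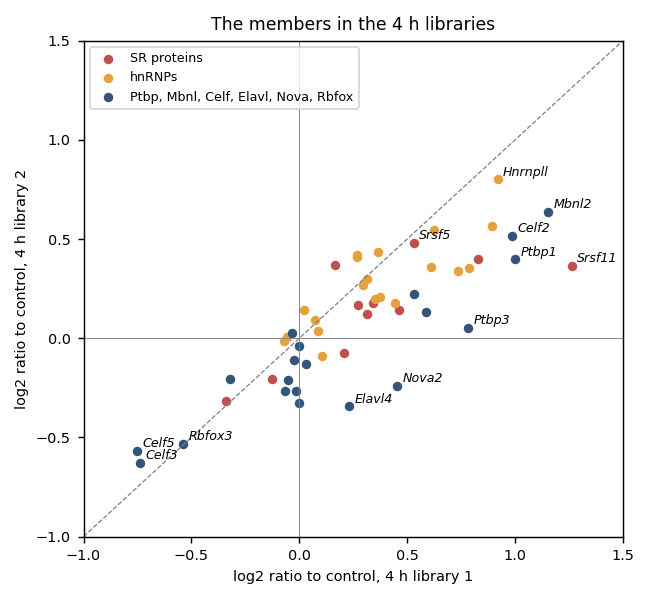
Each point is 1 of the 51 genes, placed by its log2 ratio to the control in the first (horizontal) and second (vertical) 4 h library, with the dashed line marking equal values. Hnrnpll, Srsf5, Celf3, Celf5 and Rbfox3 lie near the line, while Srsf11, Ptbp1, Ptbp3 and Nova2, whose pair ratios are at least 1.5, lie under it.

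Mbnl2, the muscleblind protein that governs most adult brain exons of its family and is trapped by repeat RNA in myotonic dystrophy, stood at 301 normalized CPM in the control, 369 after 1 h, 669 and 468 after 4 h and 319 after 8 h. Both 4 h libraries were above all others, and the first was 1.43 times the second. The log2 fold change was 0.92 ± 0.26 after 4 h and 0.09 ± 0.29 after 8 h, and the 8 h level differed from the 4 h level by -0.83 ± 0.26, with an adjusted p of 0.515 in the quasi-likelihood test of edgeR. Mbnl1 stood at 138, 183, 207, 151 and 150, with a log2 fold change of 0.38 ± 0.23 after 4 h. Mbnl3, mainly an embryonic and placental gene, was near the floor of 3 counts in every library.

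Srsf11, an SR-related protein with a role in the microexons of neurons, had the widest pair of the 51, at 95.9 normalized CPM in the control, 99.1 after 1 h, 230 and 123 after 4 h and 110 after 8 h. Only the first 4 h library was far from the control (2.40 times, against 1.29 times in the second), and its log2 fold change of 0.88 ± 0.38 rests on that library. Hnrnpf, which binds runs of G, stood at 31.6, 36.6, 58.7, 46.9 and 37.0, with both 4 h libraries above the other 3 and a log2 fold change of 0.74 ± 0.23. Of its annotated exon sequence, 26.5% lies opposite other genes. The same holds for 29.1% of Hnrnpab, which stood at 90.7, 104, 140, 132 and 97.4 and had close 4 h libraries.

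Hnrnpc and Hnrnph1 were 2 of the 5 highest at 8 h, with Ptbp1, Srsf9 and Hnrnpll. Hnrnpc, which binds runs of U and keeps cryptic exons out, stood at 134 normalized CPM in the control, 146 after 1 h, 204 and 172 after 4 h and 170 after 8 h. Hnrnph1, another G-run binder, stood at 244, 276, 311, 280 and 318, the 8 h library being its highest. Srsf9, a short SR protein, stood at 37.5, 41.0, 42.0, 48.5 and 49.7, also highest at 8 h, and its log2 fold change at 8 h was 0.41 ± 0.23. None of the 51 was at least 1.5-fold above the control at 8 h, against 14.1% of all genes tested and 3.92% of the more abundant ones.

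The other hnRNPs and SR proteins are given by their range. Srsf12, an SR protein that opposes the others, was among the 5 lowest at 4 h, at 18.9 normalized CPM in the control, 20.6 after 1 h, 15.0 and 15.2 after 4 h and 18.7 after 8 h. The 4 h log2 fold changes of the hnRNPs not described above ran from -0.04 (Hnrnpul1) to 0.40 (Hnrnpa0), and those of the other SR proteins from 0.07 (Srsf2) to 0.31 (Srsf10). Hnrnpk, a poly-C binder and the highest hnRNP by length in the control, stood at 377, 392, 463, 454 and 390, with 4 h libraries that nearly coincided.

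The Celf family divided by member. Celf2, a broadly expressed member, stood at 212 normalized CPM in the control, 246 after 1 h, 421 and 304 after 4 h and 252 after 8 h, with every kainic acid library above the control and a log2 fold change of 0.77 ± 0.24 after 4 h. Celf3, a brain-enriched member (chr3:94478295-94492198, plus strand), stood at 71.0, 70.6, 42.6, 46.0 and 56.4. The control and the 1 h library were alike, both 4 h libraries were at 60.0% and 64.8% of the control, and the 8 h library lay between. Its log2 fold change was -0.68 ± 0.18 after 4 h, with an adjusted p of 0.326 in the quasi-likelihood test of edgeR.

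Celf5, also brain-enriched, followed the same course at 61.6, 56.4, 36.6, 41.6 and 51.3 normalized CPM, with a log2 fold change of -0.65 ± 0.19 after 4 h. Celf1 stood at 190, 208, 190, 185 and 205 and Celf4 at 326, 317, 320, 302 and 323, with no library far from the control. Celf6 stood at 21.6, 19.4, 21.3, 17.9 and 14.6, lowest at 8 h with a log2 fold change of -0.56 ± 0.29. By length, Celf4 was the highest of the family in the control (123 TPM), followed by Celf1 (73.1), Celf3 (42.1), Celf5 (30.0), Celf2 (26.6) and Celf6 (19.3), and at 4 h Celf2 (48.0 and 35.8) was above Celf3 (23.0 and 25.7).

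Rbfox3, the antigen known as NeuN that marks most mature neurons, stood at 119 normalized CPM in the control, 115 after 1 h, 82.0 and 82.4 after 4 h and 93.0 after 8 h. The 4 h libraries were nearly equal, at 68.8% and 69.2% of the control, and the 8 h library stayed at 78.1%. The log2 fold change was -0.53 ± 0.16 after 4 h and -0.36 ± 0.19 after 8 h, with an adjusted p of 0.356 at 4 h in the quasi-likelihood test of edgeR. Rbfox1 stood at 298, 313, 239, 259 and 286, with both 4 h libraries lowest, and Rbfox2 at 210, 209, 202, 182 and 229. Of the 5 pan-neuronal genes, 1 (Map2) was above and 3 were below the control in both 4 h libraries, with a median log2 fold change of -0.02, although their sum was higher (5726 and 5042 against 4895). The CA1 pyramidal cell genes Wfs1, Fibcd1 and Pou3f1 summed to 238 in the control, 216 after 1 h, 164 and 199 after 4 h and 196 after 8 h. Of these 3 genes, 2 (Fibcd1 and Pou3f1) were below the control in both 4 h libraries, and their part in these levels was not tested.

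The neuronal Elavl genes, which encode the Hu proteins that bind U-rich and AU-rich RNA, were lowest at 8 h, and all 3 were also below the control in the second 4 h library. Elavl2 stood at 83.4 normalized CPM in the control, 78.6 after 1 h, 83.1 and 66.6 after 4 h and 53.7 after 8 h, and Elavl4 at 66.3, 70.0, 77.7, 52.2 and 42.4. In both genes the 8 h library was the lowest of the 5, at 64.4% and 64.0% of the control, and the 4 h libraries lay on either side of the control for Elavl4. The 8 h and 4 h levels of the 2 genes had adjusted p-values of 0.603 and 0.611 for their difference in the quasi-likelihood test of edgeR. These were the only 2 of the 51 at least 1.5-fold below the control at 8 h (3.92%, against 8.94% of all genes and 3.99% of the more abundant ones). Their log2 fold changes were -0.63 ± 0.24 and -0.64 ± 0.32. At 8 h, 4 of the 5 pan-neuronal genes were also below the control and 1 (Map2) above it, with a median log2 fold change of -0.27. All 3 CA1 pyramidal cell genes were below the control at 8 h (median -0.10), and all 4 blood genes were above it (0.42). The part of these marker genes in the Elavl levels was not tested.

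Elavl3 stood at 120, 117, 114, 99.7 and 97.1 normalized CPM, lowest in the second 4 h and the 8 h libraries. Elavl1, the widely expressed member known as HuR, had the other course, at 92.3, 87.5, 133, 108 and 99.1, with both 4 h libraries above the control and a log2 fold change of 0.38 ± 0.20. The Nova genes, which encode the antigens of a paraneoplastic movement disorder, were low and had no common course. Nova1 stood at 20.9, 24.4, 21.4, 19.1 and 19.3, and Nova2 at 13.1, 15.4, 17.9, 11.1 and 15.6, with the 4 h libraries of Nova2 on either side of the control and 31.7% of its exon sequence opposite Gm26821.

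**Figure D5:**
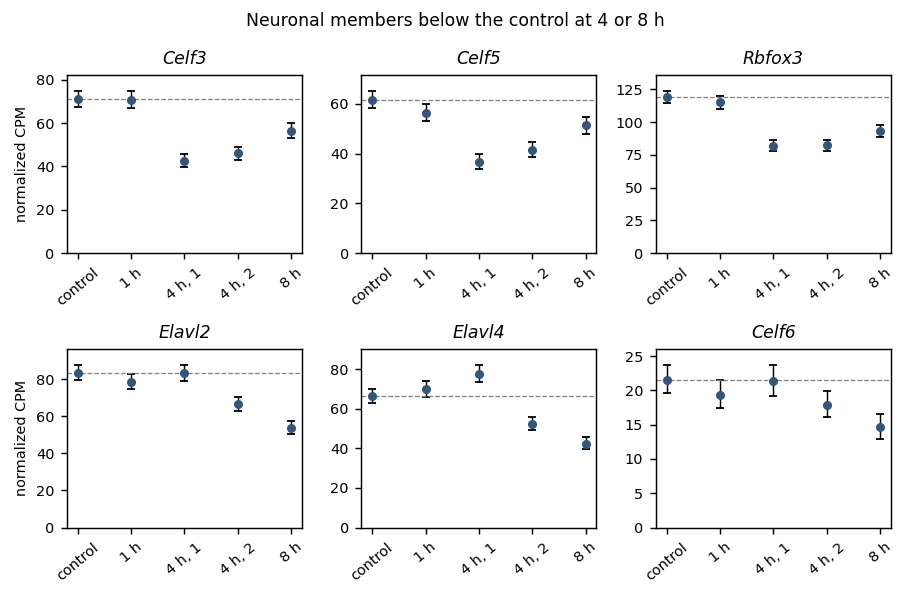
Normalized CPM (vertical axes, from 0) in each of the 5 libraries (horizontal axes) for 6 neuronal members with low ratios at 4 or 8 h. Bars are exact Poisson 95% intervals (counting error only) and dashed lines the control level. Celf3, Celf5 and Rbfox3 are lowest in the 4 h libraries, and Elavl2, Elavl4 and Celf6 in the 8 h library.

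The start sites of these genes were then read for sites of activity-regulated factors, since CREB binds the element TGACGTCA or its shorter core TGACG, AP-1 binds TGACTCA and EGR proteins bind GCGGGGGCG. RefSeq windows of GRCm38.p6, from 250 bases before to 50 after a start, existed for 47 of the 52 genes (84 windows), and both strands were searched. Hnrnpll, Hnrnpul2, Ptbp3, Celf4 and Rbfox2 were not among them. The core site was found in 37 of the 84 windows (44.0%), against 20.8% of all 32851 windows, and counted by gene in 25 of 47 (53.2%), against 23.0% of 27025 genes. Every full CREB element is also counted as a core site. The background was every window, not matched for expression or base composition, although the core site itself contains CG. Counted by gene, the 47 genes had 84 windows, against 32851 windows for 27025 genes, and more windows give more places for a match. The part of these differences in the shares was not tested. The full element was found in 4 of the 84 windows (4.76%, against 1.79%), namely 3 overlapping starts of Celf3 and 1 of Celf6. AP-1 sites were found in 1 window (1.19%, against 5.2%) and EGR sites in 5 (5.95%, against 2.91%). A match of letters is a description of these windows and does not show that a factor binds there.

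Of the genes highest at 1 h, Srsf5, Ptbp1 and Hnrnpa2b1 had the core site in their windows, and Srsf7 and Hnrnpu had no match to the 4 motifs. The core site was also found in 4 of the 5 lowest at 1 h (Hnrnpr, Celf6, Celf5 and Elavl2), and among the highest at 4 h Mbnl2, Srsf11 and Hnrnpf had it and Celf2 had no match. Of those lowest at 4 h, Celf3 had the full element at an internal start, Celf5 had the core site in 2 of its 5 windows and an EGR site in another, and Rbfox3, Srsf12 and Rbfox1 had no match. The only Rbfox3 window lies inside the annotated gene, and its outermost start was not searched. The 250 bases before 4 start sites that hold no annotated exon are shown as examples of each kind, 5′ to 3′ on the strand of the gene (the Celf3 and Rbfox3 starts being internal), with any matched motif in capitals: Hnrnpa2b1 at chr6:51469895-51470144 (minus strand), Hnrnpu at chr1:178337816-178338065 (minus), Celf3 at chr3:94484077-94484326 (plus) and Rbfox3 at chr11:118761042-118761291 (minus).
Hnrnpa2b1: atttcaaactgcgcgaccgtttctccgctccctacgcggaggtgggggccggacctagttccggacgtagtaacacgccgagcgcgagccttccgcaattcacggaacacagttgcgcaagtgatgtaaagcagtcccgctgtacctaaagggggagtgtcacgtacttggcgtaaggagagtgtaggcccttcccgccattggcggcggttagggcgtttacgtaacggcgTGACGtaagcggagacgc
Hnrnpu: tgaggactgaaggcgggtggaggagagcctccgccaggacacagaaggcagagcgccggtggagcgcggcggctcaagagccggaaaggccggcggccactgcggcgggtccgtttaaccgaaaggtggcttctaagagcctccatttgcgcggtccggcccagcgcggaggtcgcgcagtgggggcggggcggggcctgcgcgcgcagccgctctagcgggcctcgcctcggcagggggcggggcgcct
Celf3: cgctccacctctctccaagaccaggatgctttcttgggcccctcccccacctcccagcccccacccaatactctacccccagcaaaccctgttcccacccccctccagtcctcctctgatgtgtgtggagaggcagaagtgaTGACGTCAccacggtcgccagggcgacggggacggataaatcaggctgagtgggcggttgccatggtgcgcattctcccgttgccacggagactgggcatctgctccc
Rbfox3: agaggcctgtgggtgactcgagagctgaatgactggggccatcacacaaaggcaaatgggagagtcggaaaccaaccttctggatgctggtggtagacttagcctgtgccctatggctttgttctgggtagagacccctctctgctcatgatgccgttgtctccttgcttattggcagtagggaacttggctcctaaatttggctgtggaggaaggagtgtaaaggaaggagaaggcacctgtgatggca

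The core site of Hnrnpa2b1 begins 18 bases before its start site, and the full element of Celf3 begins 108 bases before its internal start.

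The counts do not tell spliced from unspliced or decay-bound transcripts of these genes, and how much of their annotation belongs to such transcripts differed. In GENCODE M21, 38 of the 51 genes have a transcript annotated as retained intron or as a target of nonsense-mediated decay, and a median of 18.6% of exon sequence occurs in such transcripts only. That share was 73.3% for Hnrnpll, 63.0% for Hnrnpa2b1, 60.6% for Srsf11, which has 11 retained-intron transcripts, 59.3% for Mbnl2 and 42.8% for Srsf5. It was 18.6% for Ptbp1, 9.11% for Hnrnpu, 8.80% for Celf5 and 0% for Rbfox3. Across the 51 genes, which share libraries, the share and the 1 h log2 fold change had a Spearman rho of 0.12 and a Pearson r of 0.31, and the share and the 4 h log2 fold change a rho of 0.24 and an r of 0.31. For the 8 h log2 fold change, the rho was 0.07 and the r 0.14. For the log2 ratio of the first to the second 4 h library, they were 0.12 and 0.13. Reads on no gene made up 24.7% of all reads in the control, 29.0% after 1 h, 33.1% and 25.3% after 4 h and 30.9% after 8 h, highest in the first 4 h library.

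Other genes of the splicing pathway, taken as lists, gave no called gene either in the quasi-likelihood test of edgeR. Of 9 kinases of SR proteins, 2 were above and 4 below the control in both 4 h libraries, with Dyrk1a highest (104 normalized CPM in the control, 182 and 157 after 4 h, log2 fold change 0.70), followed by Clk4 (0.31) and Srpk1 (0.04), and with Clk3 (-0.13), Clk1 (-0.18) and Srpk3 (-0.20) lowest. SR-related proteins numbered 10, with 4 above and 4 below. Among them stood Srrm4, which drives neuronal microexons (14.6 in the control, 37.1 and 23.2 after 4 h, 1.04), and its relative Srrm3 in the other direction (30.0, then 16.7 and 15.9, -0.88). The 2 libraries were far apart for Srrm4 and close for Srrm3. Tra2a (0.41) and Tra2b (0.36) came after Srrm4, and Acin1 (-0.23) and Scaf1 (-0.42) were nearest to Srrm3.

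Of 10 STAR and KH proteins, 7 were above and 1 below the control in both 4 h libraries, from Pcbp1 (0.41), Fubp1 (0.41) and Khdrbs1 (0.38) to Khsrp (0.05), Khdrbs2 (-0.04) and Pcbp4 (-0.33). Of 28 tested FET and other RNA-binding proteins, 17 were above and 8 below. Highest were Rbm4b (1.06), Syncrip (0.98), an mRNA transport protein at 100 normalized CPM in the control and 222 and 172 at 4 h, and Taf15 (0.63), and lowest were Tia1 (-0.51), Raver2 (-0.96), a partner of PTB, and Rbm24 (-1.24). The core spliceosome, with 20 of 31 above and 7 below, had Sf3b1, the branch point factor, at 434, 684, 756, 640 and 455, a course like that of Hnrnpu, with a log2 fold change of 0.66 at 1 h and 0.69 at 4 h. Snrpa1 (0.78) and U2af1 (0.56) were also among its 3 highest, and Snrnp70 (-0.20), Snrnp200 (-0.22) and Sf3a2 (-0.23) its lowest. Nonsense-mediated decay genes, 5 of 10 above and 3 below, included Smg8 (0.39) and Smg1 (0.32) among the higher and, as the 3 lowest, Smg9 (-0.07), Upf3b (-0.10) and Upf2 (-0.15).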

How the data were processed

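Total hippocampal RNA of 5 libraries had been made into stranded libraries and sequenced as paired ends. Per the submitters' processing notes, reads were aligned with STAR 2.5.1b to GRCm38.p4 and counted with HTSeq; no source used here names its strand setting or annotation release. The authors deposited whole-number counts for 55385 genes with no normalization, and summary lines (reads on no gene, ambiguous, aligned more than once) that stayed out of library sizes. Reads aligned more than once made up between 9.67% and 11.6% and were not counted, which matters for hnRNP and SR genes with processed pseudogenes.

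The analysis used edgeR 4.0.16 under R 4.3.3, with genes kept by filterByExpr (19768), TMM factors, the quasi-likelihood test over all 5 libraries with time as the only term and 1 residual degree of freedom, Benjamini-Hochberg adjustment over all genes at 0.05, and log2 fold changes with a prior count of 2 and the SE of the unshrunk coefficient. The common biological coefficient of variation was 0.238. Every ± is the SE of edgeR, and DESeq2 gave wider ones for some genes. Its SE was 0.34 for Hnrnpll at 1 h (edgeR 0.19), 0.32 for Srsf5 at 1 h (0.18) and 0.33 for Celf3 at 4 h (0.18). For Srsf11 at 4 h, both gave 0.38. The test was run first on simulated data whose planted changes were larger than any of the splicing regulators. That run does not show whether changes of their size would be found. The alternatives tried were library size alone, median-of-ratios factors, no filter, at least 10 counts in every library, DESeq2 1.42.0, limma-voom 3.58.1, an assumed coefficient of variation of 0.2 or 0.4, a prior count of 0.125, and leaving out either 4 h library. Levels per length used exon lengths of GENCODE M21, which held 55144 of the identifiers. Values in every library are given for the neuronal families and for the 5 highest and 5 lowest members at each time point with at least 50 counts in a library, and for other lists the 3 highest and 3 lowest at 4 h, of which 1 gene is not reported here. Hnrnpu, Hnrnpk and Hnrnpab were added after their values were seen. The members, lists and rules were chosen with earlier results of these data known. Figures were drawn with matplotlib.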

Additional observations from a re-analysis of the deposited data

Results flagged for a closer look

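Reads assigned to no gene, which enter none of the comparisons, took a larger share of all reads in every kainic acid library than in the control (24.7%). The share was 29.0% at 1 h, 33.1% in the first 4 h library, 25.3% in the second and 30.9% at 8 h. The first 4 h library, with the highest share, also had the highest level of Srsf11, Mbnl2 and Hnrnpu. The 8 h library, with a share of 30.9%, stood at 110, 319 and 573 normalized CPM for these genes, against 95.9, 301 and 544 in the control. The second 4 h library, with a share of 25.3%, stood at 123, 468 and 696. These genes were examples. Other genes were highest at 1 h, such as Hnrnpll (222 against 158 in the first 4 h library) and Srsf5 (415 against 312). Hnrnph1 (318 against 311) and Srsf9 (49.7 against 42.0) were highest at 8 h. A relation between share and level was not tested.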

How the results depend on the processing

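Counts of called splicing regulators depended on the processing. At 1 h, 0 were called by the quasi-likelihood test of edgeR, 1 with library size alone, 1 by DESeq2 (Hnrnpll in both) and 4 with no filter on low counts (Hnrnpll, Ptbp1, Srsf5, Srsf7). At 4 h, 5 were called with no filter, 4 higher (Hnrnpll, Mbnl2, Celf2, Srsf11) and 1 lower (Celf3), and 0 by the others that gave a test. Over all 19768 genes tested, the calls at 1, 4 and 8 h were 0, 1 and 0. They became 57, 237 and 22 of 19768 with library size alone, and 285, 1300 and 279 of 32732 genes with no filter. With at least 10 counts in every library, they were 1, 0 and 0 of 16420 genes. DESeq2 called 56, 238 and 33 (0.449%, 1.7% and 0.235% of the genes it adjusted). Of 19768 genes, 238, 916 and 184 were called with an assumed coefficient of variation of 0.2, and 40, 81 and 12 with 0.4. Library size alone moved the median of all genes at 4 h to -0.11 and that of the splicing regulators to 0.13, and left 1 of them at least 1.5-fold higher and 3 lower in both libraries. Without a filter, 1 was 1.5-fold lower at 1 h and 2 at 4 h. Leaving out either 4 h library gave values with no test: between 2 and 13 at least 1.5-fold higher at 4 h (13 without the second library), between 1 and 2 lower, and a median between 0.146 and 0.277. Of 96 single-gene values, the 16 of at least 1.5-fold kept their sign in all 176 alternatives, which their size made likely beforehand. Their size could move, as for Ptbp1 at 4 h, with a log2 fold change between 0.40 and 1.00. Smaller values could change sign, as for Elavl4 at 4 h (-0.34 to 0.23) and Nova2 at 4 h (-0.24 to 0.45). No paired analysis was possible because only the 4 h group had a second replicate. With 1 library a condition, the spread between animals at 0, 1 and 8 h is unknown.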
